A study of Mus musculus with 15 samples.

Results

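Livers of juvenile mice at postnatal weeks 1, 2 and 3 were compared with livers of adult mice at weeks 6 and 8. The ages were chosen by label: W1, W2 and W3 formed the juvenile group and W6 and W8 the adult group, which is 5 of the 15 libraries of a series that runs from embryonic day 12.5 to week 8. All animals were C57BL/6, an inbred laboratory strain, with no transgene or treatment named. Each library held total RNA of whole liver, so every cell type of the organ contributed. There was 1 library per age here, and the ages stood in for replicates: the spread inside a group holds change between ages as well as noise, so a p-value weighs a difference against that spread alone, which may be technical in part. How many animals went into a library, their sex, and the time of day were not given in the sources used here.

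Between the suckling weeks and adulthood the rodent liver leaves its growth phase, passes through weaning from fat-rich milk to a diet rich in carbohydrate, and takes on the sex-specific programme set by the pattern of growth hormone secretion at puberty. That pattern reaches hepatocytes through the growth hormone receptor and the transcription factor STAT5B, and many genes of steroid, drug and pheromone metabolism follow it. Hepatocytes make most plasma proteins and metabolic enzymes, while stellate cells, endothelium and resident macrophages, the Kupffer cells, supply matrix, vessels and defence.

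The values are FPKM, fragments normalized to transcript length and library size, and changes are differences of group means of log2(FPKM + 1), adult minus juvenile, with the standard error of the fit. The estimated depth was 16.3 M, 16.5 M and 16.9 M fragments at W1, W2 and W3 and 20.3 M and 17.3 M at W6 and W8. A transcript of 1000 bases with 3 fragments then has 0.147 to 0.184 FPKM, and lower values are not told apart from none. The defining markers of hepatocytes were abundant in all 5 libraries. Ttr, the thyroxine carrier transthyretin, stood at 13502, 8402 and 7683 FPKM at W1, W2 and W3 and at 9230 and 5116 FPKM at W6 and W8. Alb, the albumin gene, had 19947 and 16250 FPKM at W6 and W8, and its estimate had failed at W1, W2 and W3, so it has no contrast. Of 13 markers of pancreas 9 to 11 were listed at 0 in each of the 5 libraries, and of 9 markers of muscle or fat 4 to 8. Xist, which is made from an inactive X chromosome, had 0.0448 to 0.111 FPKM. The 4 Y-linked genes tested were present in all 5 libraries and all 4 were lowest at W6: Eif2s3y had 14.7, 25.2 and 23.9 FPKM in the juvenile libraries, 3.59 FPKM at W6 and 18.2 FPKM at W8.

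Of 12290 genes over 1 FPKM in at least 2 of the 5 libraries, 1434 passed the threshold of an adjusted p under 0.05 (limma-trend, Benjamini-Hochberg adjustment over all tested genes), which is 11.7%. Of these, 214 were higher in the adult (1.74% of the tested genes) and 1220 were lower (9.93%). The tested genes as a whole had a median change of -0.43, which moves with the scaling of the libraries. Higher genes made up 14.9% of the calls on FPKM, 59.7% after quantile normalization, 49.5% after scaling by median ratios and 50.8% after removal of the trend with GC content. The shares of tested genes called higher and lower were 1.45% and 0.976% with quantile normalization, 2.15% and 2.19% with median ratios, and 1.43% and 1.38% with the GC trend removed. Under all 4 scalings, 130 genes were called higher and 99 lower. The number of calls also rested on single libraries. Without W6, 52 genes were higher and 10 lower (0.423% and 0.0814% of the tested genes). Without W8 they numbered 48 and 11 (0.391% and 0.0895%), without W1 122 and 479 (0.993% and 3.9%) and without W2 95 and 214 (0.773% and 1.74%). Without W3 they numbered 446 and 2672 (3.63% and 21.7%). With 1 adult library left, that library is assumed to vary like the juvenile ones. Calls below refer to the 5 libraries on FPKM, and a gene group is described by how many members passed and by its median beside -0.43. The gene lists were chosen with earlier results of these data known, so a high count may owe in part to that choice. Each count is to be read against 1.74% of all tested genes that rose and 9.93% that fell. For plasma proteins, transcription factors and erythroid genes the share that fell was 5.71%, 4.17% and 5.88%, under that background, and for the urea cycle and iron lists it was near it.

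**Figure D1:**
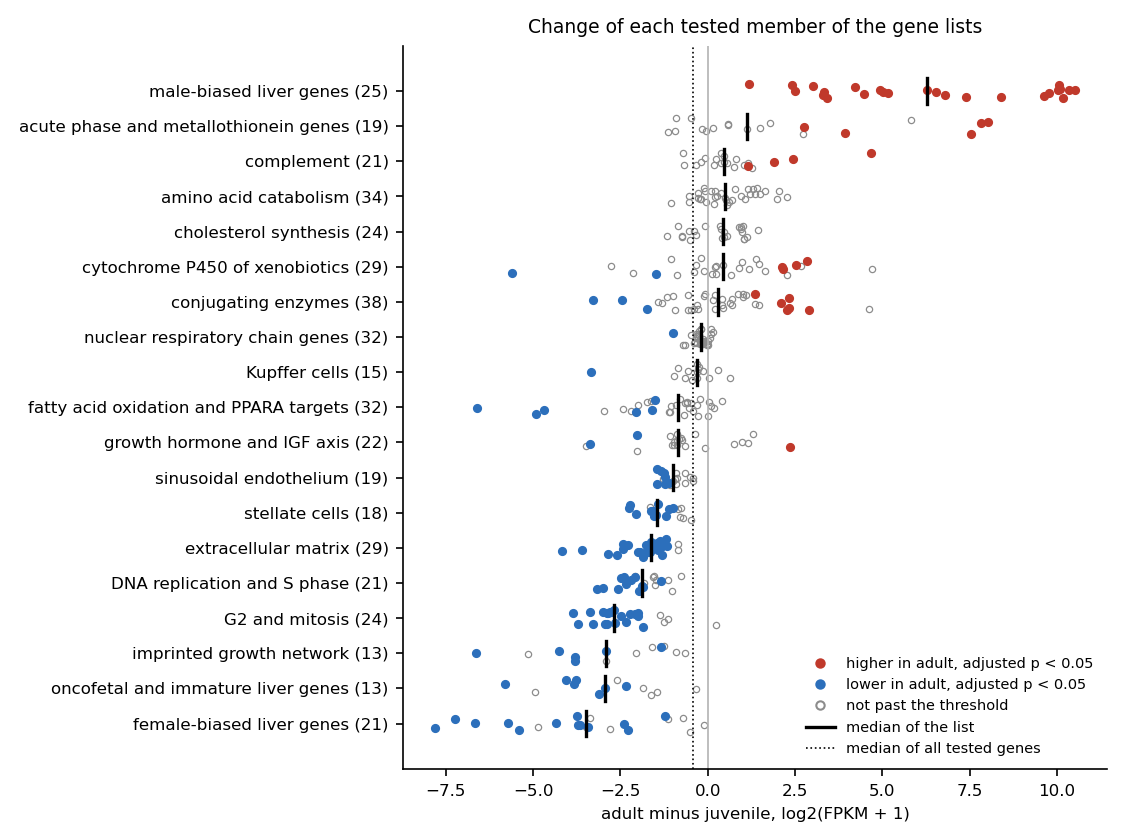
Difference between adult and juvenile weeks of each tested member of 19 gene lists, on the log2(FPKM + 1) axis, with the number of tested members after each list's name. Filled points passed the threshold, the thick bars are medians of the lists and the dotted line is the median of all tested genes, -0.43. The male-biased list lies wholly to the right and the cell cycle, matrix, fetal and female-biased lists lie mostly to the left.

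W6 and W8 were first set beside each other, because the departure of W6 followed GC content. Across 11850 or 11851 genes with a GC content, Spearman's rho between transcript GC content and the difference from the juvenile mean was 0.343 for W6 and 0.0525 for W8, and for W8 minus W6 it was -0.472. These are descriptions across genes of shared libraries. W6 and W8 lay on the same side of the 3 juvenile values for 7190 of all 12290 tested genes. They did so for all 1434 called genes too, which follows in part from the call, since it was made on these values. Among all tested genes 6.94% had both adult values above the juvenile range and 51.6% below it. The median absolute difference between W8 and W6 was 0.30 over all tested genes, 0.50 over the genes called higher and 0.19 over those called lower. It was over 1 for 47 of the 214 genes called higher (22.0%), 26 of the 1220 called lower (2.13%) and 5.12% of all. Genes that fell to near 0 FPKM cannot differ by 1 on this scale, so the shares of rises and falls are not comparable. Among called genes with a mean of at least 10 FPKM in the higher group, predicted genes left out, the largest gaps with W8 above W6 were those of Saa2 (4.80), Saa1 (3.25), Mup17 (2.36) and Mup21 (2.18). The largest with W6 above W8 were those of Cyp4a10 (8.04 against 0.992 FPKM), Sult5a1 (33.1 against 9.89 FPKM), Slc2a2 (36.2 against 13 FPKM) and Hsd3b5 (326 against 127 FPKM).

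**Figure D2:**
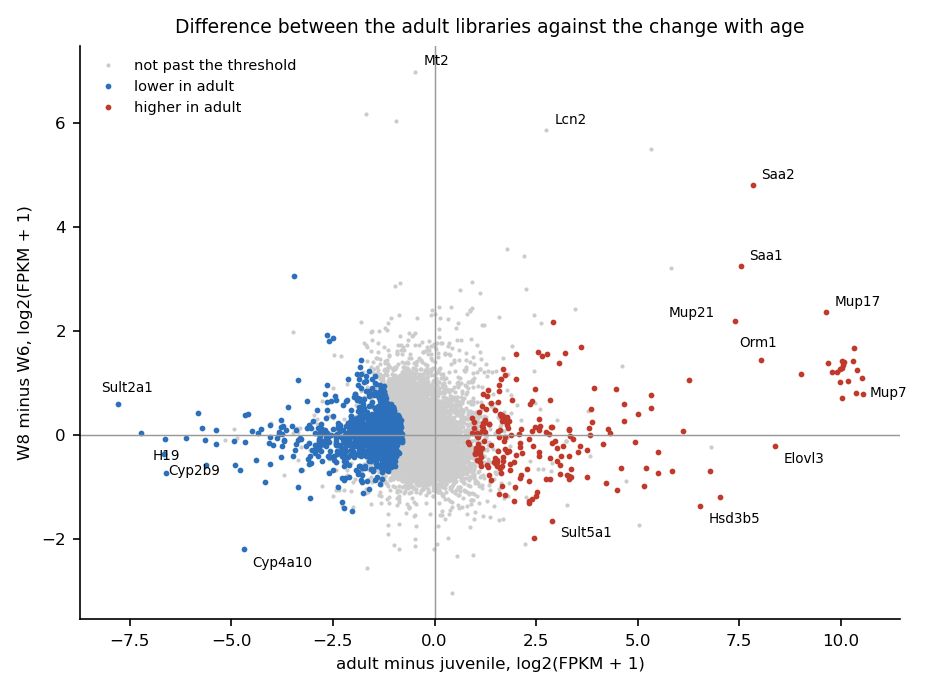
Each point is a tested gene, with the adult minus juvenile difference on the x axis and the W8 minus W6 difference on the y axis, both of log2(FPKM + 1). Genes lower in the adult (blue) lie close to a W8 minus W6 difference of 0, while the serum amyloid genes Saa1 and Saa2 stand 3.25 and 4.80 above it.

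The genes known to be higher in male liver rose. All 25 of the 25 tested members of that list passed the threshold upward, against 1.74% of all tested genes, with a median change of 6.27. The filter on low values can be met by the adult libraries alone. Elovl3, Cyp4a12a, Cyp4a12b and Slco1a1 were over 1 FPKM in no juvenile library, so their entry already needed higher adult values. The count was 25 with median ratios, 25 with the GC trend removed and 23 with quantile normalization, and it was 16 without W6 and 16 without W8. Members of the near-identical Mup family, such as Mup1 and Mup17, are part of this list. They enter its count and median and are described again below, so the 2 results overlap. Elovl3, an elongase of very long fatty acids on chromosome 19 (GRCm38.p2, 46131899 to 46135694, identifier gene40985), had 0.135, 0.211 and 0.357 FPKM at W1, W2 and W3 and 443 and 384 FPKM at W6 and W8. The juvenile values are near the counting floor, below it at W1 and above it at W2 and W3. Both adult values are 384 FPKM or more, a change of 8.39 ± 0.22 (adjusted p = 3.13e-05). Cyp4a12a, a fatty acid hydroxylase (chromosome 4, 115299046 to 115332815), had 0.0757, 0.201 and 0.146 FPKM and then 159 and 98.2 FPKM, a change of 6.79 ± 0.27 (adjusted p = 4.64e-05). Its juvenile values are likewise near the floor, above it at W2 alone. Cyp7b1, which hydroxylates oxysterols and steroids, stood at 0.744, 1.37 and 3.77 FPKM and rose to 144 and 300 FPKM (6.27 ± 0.50, adjusted p = 0.00149). Hsd3b5, a steroid reductase of male liver, stood at 3.4, 0.926 and 0.235 FPKM and rose to 326 and 127 FPKM (6.55 ± 0.61, adjusted p = 0.00329). Among the juvenile ages Cyp7b1 was highest at W3 and Hsd3b5 at W1. Both genes had both adult values above the juvenile range, as had 6.94% of all tested genes. Slco1a1, an uptake carrier of organic anions, had at most 0.498 FPKM in juveniles and 35.7 and 47.9 FPKM in adults (5.01 ± 0.24). Serpina12, a secreted serpin, went from at most 0.108 FPKM to 33.6 and 30.8 FPKM (4.94 ± 0.20).

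Some male-biased genes were expressed before puberty and rose from a level. Cyp2d9, a steroid hydroxylase, had 114, 202 and 162 FPKM in juveniles and 1326 and 588 FPKM in adults (2.50 ± 0.43, adjusted p = 0.0255). Gstp1, a glutathione transferase, had 337, 314 and 1082 FPKM and then 6427 and 3593 FPKM (3.31 ± 0.59, adjusted p = 0.0275). For both the W6 value was the higher of the adult values. Gstp1 and its neighbour Gstp2 also have an entry on a scaffold outside the chromosomes, so reads may be split between entries. C6, a component of the complement membrane attack complex, went from 3.61, 4.26 and 4.05 FPKM to 80.5 and 150 FPKM (4.48 ± 0.31, adjusted p = 6.98e-04). The smallest rise of the list was that of Susd4, a complement regulator, from 1.91, 2.69 and 1.87 FPKM to 5.63 and 6.79 FPKM (1.20 ± 0.23).

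The major urinary proteins, pheromone carriers secreted by the liver and encoded in a cluster of near-identical genes on chromosome 4, took the largest rises of all. Of 34 family genes and pseudogenes listed, 21 were tested, and all 21 rose, by 2.48 to 10.52, against 1.74% of all tested genes. Mup21, Mup-ps6, Mup-ps8, Mup-ps12 and Mup-ps19 passed the filter on low values through W6 and W8 alone. The count is thus set in part by the filter. Many members, such as Mup2, Mup3 and Mup20, also have a scaffold entry, and reads given to those entries are not counted here. How reads were divided among the near-identical copies is uncertain, so the family sum over the chromosomes is firmer than a single member. It was 46.6, 56.7 and 55.7 FPKM at W1, W2 and W3, or at most 0.00666% of the summed FPKM, and 52619 and 123572 FPKM at W6 and W8, or 5.43% and 11.8%. In the 10 libraries before W1 it lay between 45.7 and 54.9 FPKM. All 21 tested members were higher at W8 than at W6. Mup7 alone had 8.65, 9.54 and 8.27 FPKM in juveniles and 9833 and 21022 FPKM in adults (10.52 ± 0.36, adjusted p = 4.16e-05). It also has a scaffold copy. Mup17 had 1.87, 1.87 and 2.19 FPKM and then 1045 and 5364 FPKM (9.64 ± 0.63, adjusted p = 5.60e-04). Among the 21 tested members it had the widest gap between the adult libraries.

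Many genes known to be higher in female liver were expressed in the juvenile weeks and lower in both adult libraries. The list summed to 1024, 1153 and 2293 FPKM at W1, W2 and W3 and to 104 and 41.7 FPKM at W6 and W8. Of 25 such genes 21 passed the filter on low values, which favours genes high in the juvenile group. Of these, 13 fell and none rose, against 9.93% of all tested genes that fell, with a median of -3.49. The count was 10 with median ratios, 9 with quantile normalization and 9 with the GC trend removed. It was 4 without W6, 4 without W8, 9 without W2 and 17 without W3. Sult2a1, a sulfotransferase of bile acids and steroids (chromosome 7, 13796246 to 13837410, identifier gene15879), climbed from 86.3 FPKM at W1 to 320 at W2 and 1278 at W3, and had 0.201 and 0.815 FPKM at W6 and W8 (-7.80 ± 1.00, adjusted p = 0.0115). The Sult2a family of 7 similar genes summed to 201, 641 and 2176 FPKM and then to 1.45 and 1.80 FPKM. Its members share much sequence, so the sum is again firmer than a member. Cyp2b9, a cytochrome P450 of female liver (chromosome 7, 26173333 to 26210661), was level across the juvenile ages, at 140, 137 and 121 FPKM, and had 0.489 and 0.160 FPKM in adults (-6.67 ± 0.23, adjusted p = 4.16e-05).

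Hao2, a peroxisomal hydroxyacid oxidase, had 58.4, 36.8 and 50.7 FPKM in juveniles and 0.123 and 0.203 FPKM in adults (-5.39 ± 0.26, adjusted p = 1.07e-04). Cux2, a transcription factor of female liver, had 7.07, 15.7 and 9.71 FPKM and then 0.0181 and 0.0960 FPKM, below the floor (-3.42 ± 0.33, adjusted p = 0.00373). Abcd2, a peroxisomal fatty acid carrier, fell from between 19.2 and 33.3 FPKM to 0.202 and 0.236 FPKM (-4.35 ± 0.28). The loss did not have 1 timing. Cyp3a16, a cytochrome P450 of perinatal liver, had 154, 127 and 20.8 FPKM and then 0.362 and 0.493 FPKM (-5.73 ± 0.80, adjusted p = 0.0157). The near-identical Cyp3a41a had 117, 13.1 and 0.191 FPKM at W1, W2 and W3 and 0.0976 and 0.131 FPKM in adults, so that it was already at the floor at W3 and did not pass (-3.49 ± 1.66, adjusted p = 0.169). In the other direction in time, Sult1e1, the estrogen sulfotransferase, had 0.109, 0 and 12.5 FPKM and was listed at 0 at W6 and W8. It was over the counting floor at W3 alone of the 5 libraries and did not enter the fit. Cyp17a1, the steroid lyase, had 1.28, 0.378 and 20.5 FPKM and 1.47 and 4.75 FPKM, with overlapping groups.

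**Figure D3:**
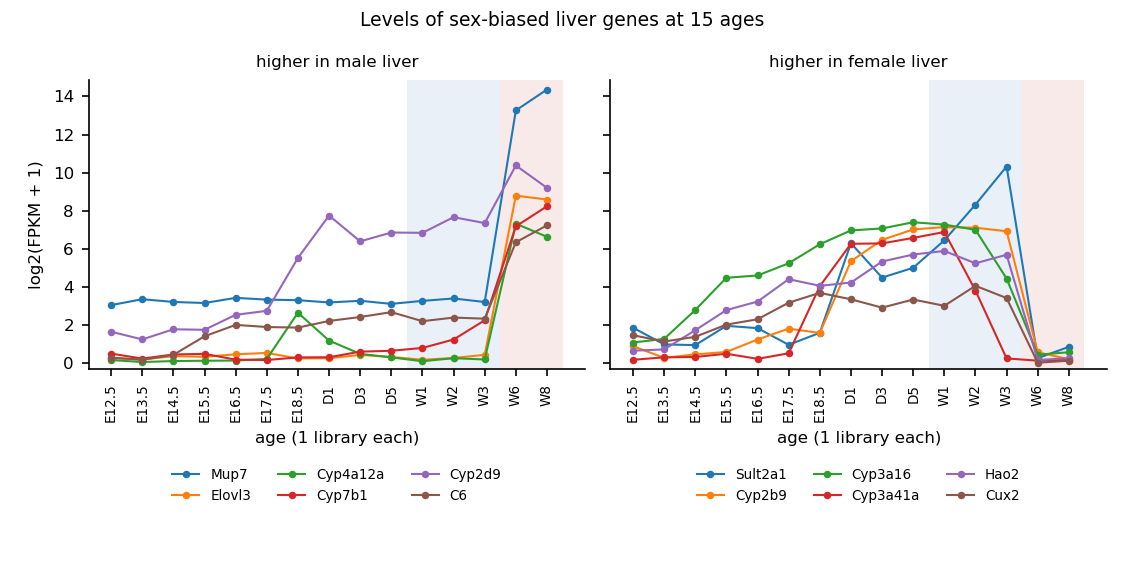
Levels of 6 genes known to be higher in male liver and 6 known to be higher in female liver at 15 ages, 1 library each, as log2(FPKM + 1). The juvenile weeks are shaded blue and the adult weeks red. Elovl3 and Cyp4a12a are at or under 0.357 FPKM at W1 to W3 and at 98.2 FPKM or more at W6 and W8, while Sult2a1 goes from 1278 FPKM at W3 to under 1 FPKM.

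The growth hormone list, which holds targets as well as upstream genes, had few calls. Of 22 genes of the growth hormone and insulin-like growth factor axis, 1 rose and 2 fell, with a median of -0.85. The share of falls, 9.09%, was near the 9.93% of all tested genes. The receptor Ghr had 101, 77.4 and 137 FPKM in juveniles and 202 and 148 FPKM in adults (0.75 ± 0.32, adjusted p = 0.138). Its target Igf1, the circulating growth factor, had 96.2, 49.2 and 158 FPKM and then 248 and 203 FPKM (1.29 ± 0.48, adjusted p = 0.102). Both adult values exceeded all juvenile ones for Ghr and Igf1, as for 6.94% of all tested genes, and neither gene passed. Stat5b, the signal transducer, had 13.8, 22.1 and 17.5 FPKM against 11 and 10.8 FPKM (-0.64 ± 0.26, adjusted p = 0.123). Bcl6, a transcriptional repressor that STAT5 regulates in liver, rose from 1.33, 0.973 and 6.41 FPKM to 12.5 and 19.5 FPKM (2.36 ± 0.57, adjusted p = 0.0466). Igfbp2, a binding protein of the growth factors, fell from 3677, 7958 and 1335 FPKM to 466 and 232 FPKM (-3.36 ± 0.73, adjusted p = 0.0382). Igfbp3 fell from 34.3, 29.5 and 25.3 FPKM to 7.63 and 5.61 FPKM (-2.01 ± 0.25, adjusted p = 0.0107). Igfbp4, the binding protein with the highest adult level, had 735, 844 and 913 FPKM and 962 and 650 FPKM, with overlapping groups. None of the 22 passed without W6 or without W8, 1 did with quantile normalization, with the GC trend removed, without W1 or without W2, and 12 did without W3.

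Other large changes lay in enzymes and secreted proteins outside these lists. Ces3b and Ces3a, carboxylesterases that hydrolyse lipids, rose to 388 and 169 FPKM and to 1697 and 1059 FPKM, by 7.04 ± 0.53 and 5.84 ± 1.07. Ces3a had dipped from 64.5 FPKM at W1 to 3.53 FPKM at W2 and stood at 42.0 FPKM at W3. Serpina1e, an alpha-1-antitrypsin isoform, had 1574, 191 and 255 FPKM in juveniles and 21629 and 17173 FPKM in adults (5.50 ± 0.86, adjusted p = 0.0207), so W2 and W3 were its low point. The 6 similar Serpina1 genes summed to between 11208 and 15492 FPKM in juveniles and to 42818 and 31818 FPKM in adults. Among the falls, Akr1c18, a hydroxysteroid dehydrogenase, had 55.3, 70.0 and 48.2 FPKM and then 0.192 and 0.113 FPKM (-5.66 ± 0.24, adjusted p = 6.05e-05). Akr1b7, an aldo-keto reductase, had 58.6, 72.2 and 13.9 FPKM and then 0.355 and 0.262 FPKM (-4.94 ± 0.65). Cyp2a22, a cytochrome P450, had 117, 105 and 243 FPKM and then 2.6 and 1.43 FPKM (-5.62 ± 0.41). Defb1, an antimicrobial peptide of epithelia, had 27.5, 68.6 and 21 FPKM and then 0.599 FPKM at W6 and was listed at 0 at W8 (-4.80 ± 0.51). These 4, picked among the largest falls, had both adult values below the juvenile range, as had 51.6% of all tested genes.

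Genes of fetal growth were still high at W1 and declined through the juvenile weeks at different ages. In the imprinted growth network, genes expressed from 1 parental allele, 6 of 13 tested members fell, with a median of -2.90. In the list of fetal and immature liver genes it was 7 of 13, with a median of -2.93. Of 16 imprinted and 18 fetal genes listed, 13 of each passed the filter on low values. That filter favours genes high in the juvenile group, and 9.93% of all tested genes fell. The imprinted count was 3 with median ratios, 1 with the GC trend removed, 0 with quantile normalization, 0 without W6 or without W8, 1 without W2 and 11 without W3. The fetal count was 4 with quantile normalization, 0 without W6 or without W8, 4 without W2 and 12 without W3. H19, the noncoding RNA of the Igf2 locus (chromosome 7, 142575532 to 142578146, identifier gene19032), had 5891, 3126 and 272 FPKM at W1, W2 and W3 and 16.8 and 15.9 FPKM in adults (-6.63 ± 1.19, adjusted p = 0.0273). Its neighbour Igf2, the fetal growth factor, had 1890, 484 and 5.90 FPKM and then 4.35 and 4.01 FPKM (-5.16 ± 2.11, adjusted p = 0.126). Igf2 was thus near its adult level at W3, while H19 was still above it. Afp, the fetal serum protein, followed the Igf2 order with 10639, 2899 and 48.9 FPKM and then 35.2 and 38.5 FPKM (-4.93 ± 2.02, adjusted p = 0.126).

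Gpc3, a cell surface proteoglycan (chromosome X, 52272426 to 52614247), had 156, 200 and 34.6 FPKM and then 0.590 and 1.13 FPKM (-5.82 ± 0.71, adjusted p = 0.00998). Cdkn1c, an imprinted inhibitor of the cell cycle, had 187, 49.1 and 16.2 FPKM and then 1.71 and 1.96 FPKM (-4.27 ± 0.88, adjusted p = 0.0354). Peg3, an imprinted zinc finger gene, had 16.6, 34.8 and 6.98 FPKM and then 0.118 and 0.366 FPKM (-3.79 ± 0.58). Grb10, an imprinted adaptor that dampens insulin signalling, fell from 60.5, 34.5 and 7.45 FPKM to 1.20 and 0.654 FPKM (-3.79 ± 0.77). A different order was seen for Lpl, lipoprotein lipase, a gene of immature hepatocytes. It climbed from 80.8 FPKM at W1 to 117 at W2 and 219 at W3 before it stood at 8.38 and 5.42 FPKM in adults (-4.05 ± 0.44, adjusted p = 0.00654). Bex1 fell from 54.7, 18.4 and 9.24 FPKM to 0.540 and 0.724 FPKM (-3.77 ± 0.65).

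Genes of cell division fell. In G2 and mitosis 20 of 24 tested genes passed downward and none upward, with a median of -2.68, and in DNA replication and S phase 12 of 21 did, with a median of -1.88. Without W6 or without W8 none of either list passed. The mitotic count was 12 with median ratios, 5 with the GC trend removed, 3 with quantile normalization and 6 without W2, and the S phase count 3, 2, 2 and 11. Both medians stayed below 0 under these scalings. All 24 and all 21 genes were highest at W1 among the 5 libraries, against 38.5% of all tested genes. W1 also had the most red and white blood cell RNA, given with the blood cell lists below, and its part in these contrasts was not tested. Promoters of 4 mitotic genes are shown. They were picked by size of fall among list members that passed and carry both motifs below, so each holds both by choice. Each is 250 bases before the start of the gene, 5′ to 3′ on its strand, from RefSeq on GRCm38.p6. Capitals mark matches on either strand to CCAAT (bound by the factor NF-Y) and TTTGAA (the core of the cell cycle homology region). The genes are Ube2c on the plus strand (chr2:164769679-164769928) and, on the minus strand, Cdc20 (chr4:118437344-118437593), Ccnb2 (chr9:70421555-70421804) and Mki67 (chr7:135716380-135716629).
Ube2c: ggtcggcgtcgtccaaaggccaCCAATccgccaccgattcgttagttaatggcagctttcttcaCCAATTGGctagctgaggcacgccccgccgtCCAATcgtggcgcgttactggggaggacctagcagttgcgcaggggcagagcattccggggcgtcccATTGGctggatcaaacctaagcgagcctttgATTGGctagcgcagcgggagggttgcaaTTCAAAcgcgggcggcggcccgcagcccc
Cdc20: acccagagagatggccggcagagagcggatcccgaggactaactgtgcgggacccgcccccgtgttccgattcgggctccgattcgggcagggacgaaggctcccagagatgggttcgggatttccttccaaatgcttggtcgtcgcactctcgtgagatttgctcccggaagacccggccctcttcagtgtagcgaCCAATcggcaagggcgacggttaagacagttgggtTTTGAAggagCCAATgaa
Ccnb2: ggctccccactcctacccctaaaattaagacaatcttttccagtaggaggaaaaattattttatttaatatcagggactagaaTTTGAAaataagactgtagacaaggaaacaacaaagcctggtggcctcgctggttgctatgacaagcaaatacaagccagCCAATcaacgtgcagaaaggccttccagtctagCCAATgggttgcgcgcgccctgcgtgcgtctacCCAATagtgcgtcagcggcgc
Mki67: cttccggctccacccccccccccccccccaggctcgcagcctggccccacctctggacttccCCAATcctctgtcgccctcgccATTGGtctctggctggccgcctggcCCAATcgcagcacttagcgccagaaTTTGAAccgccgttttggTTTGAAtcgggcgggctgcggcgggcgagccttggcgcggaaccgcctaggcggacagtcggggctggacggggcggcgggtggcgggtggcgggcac

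CCAAT occurred on either strand in 18 of the 20 list members with a promoter in the RefSeq table (90%), against 34.5% of 27018 promoters of the same length, and TTTGAA in 8 of 20 (40%), against 16.3%. In S phase genes the counts were 11 of 18 and 2 of 18. CCAAT was as frequent in the cholesterol synthesis list, 15 of 16, none of whose members passed the comparison, so it is not particular to genes that fell. Neither motif contains the other. A match is a description of these letters, not a bound site. Cdc20 and Ube2c carry TTTGAA 18 and 29 bases before the start, with CCAAT on both sides of it in Cdc20 and upstream of it in Ube2c. Ube2c, the ubiquitin carrier of the anaphase-promoting complex, had 113, 37.1 and 20.04 FPKM at W1, W2 and W3 and 2.21 and 2.62 FPKM at W6 and W8 (-3.73 ± 0.65, adjusted p = 0.0268). Cdc20, the activator of the same complex, had 39.7, 16.8 and 12.8 FPKM and then 1.15 and 1.02 FPKM (-3.37 ± 0.45, adjusted p = 0.0133). In both the juvenile values descended from W1 to W3. Both adult values lay below all of them, as for 51.6% of all tested genes. Ccnb2, a mitotic cyclin, had 36.9, 20.4 and 7.35 FPKM and then 0.993 and 0.889 FPKM (-3.29 ± 0.58, adjusted p = 0.0272). Mki67, the proliferation marker Ki-67, had 26.9, 7.81 and 4 FPKM and then 0.233 and 0.480 FPKM (-2.99 ± 0.66, adjusted p = 0.0392).

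Birc5, the survivin subunit of the chromosomal passenger complex, had the largest mitotic fall, from 58.7, 32.3 and 18.3 FPKM to 1.36 and 1.26 FPKM (-3.87 ± 0.45, adjusted p = 0.00885). The mitotic list summed to 553, 243 and 138 FPKM and then to 22.3 and 21.8 FPKM. S phase genes went down in another order: they summed to 638, 226 and 315 FPKM and then to 83.2 and 72.4 FPKM, so W3 lay above W2. Rrm2, a subunit of ribonucleotide reductase, showed it with 57.7, 11.2 and 16.9 FPKM and then 1.78 and 1.40 FPKM (-3.18 ± 0.62, adjusted p = 0.0330). So did Mcm6, a subunit of the replicative helicase, with 49.0, 16.3 and 27.6 FPKM and then 2.98 and 2.28 FPKM (-3.01 ± 0.44, adjusted p = 0.0172). Uhrf1, which keeps DNA methylation at the replication fork, had 15.9, 3.5 and 7.35 FPKM and then 0.459 and 0.454 FPKM (-2.56 ± 0.51). Pcna, the sliding clamp, was the most abundant of the list at 134, 52.4 and 77.2 FPKM and then 19.2 and 20.8 FPKM (-1.98 ± 0.40). Ccnf was the exception among mitotic genes, with 10.5, 3.24 and 4 FPKM and then 6.80 and 5.84 FPKM (0.23 ± 0.43, adjusted p = 0.718).

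**Figure D4:**
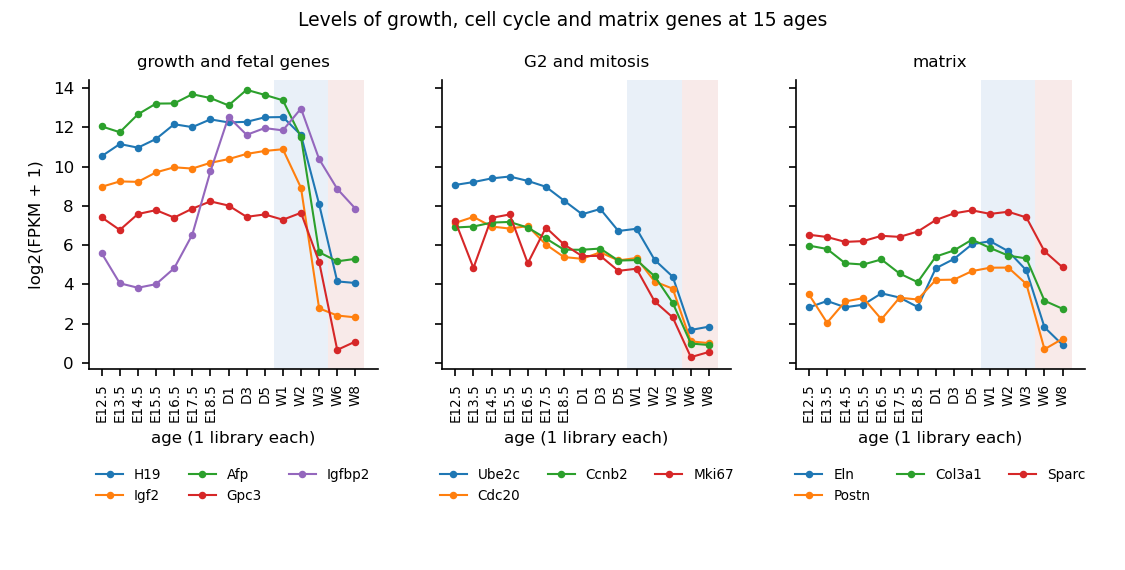
Levels of growth and fetal, mitotic and matrix genes at 15 ages, 1 library each, as log2(FPKM + 1), with the juvenile weeks shaded blue and the adult weeks red. Igf2 and Afp drop between W1 and W3, whereas Gpc3, Mki67, Eln and Postn still have 4 to 34.6 FPKM at W3 and have 2.54 FPKM or less at W6 and W8.

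Matrix genes and genes of the cells that make matrix fell as well. Of 29 tested extracellular matrix genes 25 passed downward and none upward, with a median of -1.62. The count was 12 with median ratios, 9 with the GC trend removed, 7 with quantile normalization, 8 without W2, 1 without W6 and 0 without W8. The median stayed below 0 throughout, and no member was highest in an adult library. Eln, elastin, had 72.6, 50.8 and 25.3 FPKM in juveniles and 2.54 and 0.896 FPKM in adults (-4.17 ± 0.48, adjusted p = 0.00845). Postn, the matricellular protein periostin, had 27.9, 28.0 and 15.3 FPKM and then 0.628 and 1.36 FPKM (-3.61 ± 0.34, adjusted p = 0.00344). Nid1, a linker of the basement membrane, had 28.3, 22.5 and 7.32 FPKM and then 1.68 and 1.33 FPKM (-2.84 ± 0.52). The fibrillar collagens moved less in size: Col3a1 had 57.0, 43.3 and 39.1 FPKM and then 8.01 and 5.78 FPKM (-2.58 ± 0.27, adjusted p = 0.00545), and Col1a1 had 35.4, 18.7 and 14.3 FPKM and then 4.99 and 4.64 FPKM (-1.94 ± 0.38). Sparc, a collagen-binding glycoprotein and the most abundant member, had 192, 207 and 169 FPKM and then 50.6 and 28.3 FPKM (-2.29 ± 0.31, adjusted p = 0.0136). Dcn, the proteoglycan decorin, instead climbed to W3, with 62.0, 86.6 and 102 FPKM, before 19.8 and 34.0 FPKM in adults (-1.62 ± 0.34).

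Stellate cell markers fell in 12 of 18 tested, with a median of -1.46, sinusoidal endothelium markers in 7 of 19, with a median of -1.0, and Kupffer cell markers in 1 of 15, with a median of -0.32. Of all tested genes 9.93% fell, so the Kupffer share was not above the background. With median ratios the counts were 5, 0 and 1 and the Kupffer median turned to 0.18. Without W6 they were 0, 0 and 0, without W8 0, 0 and 1, without W1 6, 1 and 1, without W2 3, 0 and 1, and without W3 14, 11 and 3. In bulk tissue, fewer cells of a type and less RNA per cell cannot be told apart. Reln, the secreted protein reelin of stellate cells, had 10.6, 12.6 and 6.78 FPKM and then 1.31 and 1.17 FPKM (-2.26 ± 0.29, adjusted p = 0.0111). Lrat, the enzyme that stores vitamin A in stellate cells, was level at 4.08, 4.42 and 3.96 FPKM and then had 0.830 and 1.02 FPKM (-1.42 ± 0.20, adjusted p = 0.0161). Both lay below all juvenile values at W6 and W8, as did 51.6% of all tested genes. Ecm1, the most abundant marker of the list, had 75, 90.4 and 143 FPKM and then 61.1 and 52.2 FPKM (-0.80 ± 0.33, adjusted p = 0.126). Of the endothelial list, Rspo3, a Wnt signal enhancer of central veins, had 4.55, 4.68 and 5.06 FPKM and then 0.966 and 1.67 FPKM (-1.33 ± 0.23, adjusted p = 0.0255), and the lectin Clec4g had 43.7, 58.5 and 50.9 FPKM and then 43.1 and 32.7 FPKM (-0.42 ± 0.26, adjusted p = 0.259).

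Within the Kupffer list 1 gene parted from the others. Marco, a scavenger receptor, had 88.6, 59.6 and 62.0 FPKM in juveniles and 3.74 and 8.91 FPKM in adults (-3.35 ± 0.37, adjusted p = 0.00719). Clec4f, a lectin of Kupffer cells, had 79.6, 77.5 and 76.7 FPKM and then 72.0 and 57.9 FPKM (-0.27 ± 0.23, adjusted p = 0.421). C1qa, a complement subunit of macrophages, had 134, 93.9 and 97.8 FPKM and then 117 and 80.4 FPKM, with overlapping groups (-0.14 ± 0.29, adjusted p = 0.744). Marco stayed past the threshold with quantile normalization, median ratios and the GC trend removed. It was lost without W6. The other 14 tested markers of the list did not pass.

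Blood cell genes were highest at W1. The erythroid list summed to 40940 FPKM at W1, 8098 at W2 and 7610 at W3 and to 3762 and 1812 FPKM in adults, and 1 of 17 tested members passed, Car2, a carbonic anhydrase (-3.08 ± 0.76). Hba-a1, an alpha globin, had 14244, 2770 and 2754 FPKM and then 1293 and 619 FPKM (-2.41 ± 0.77, adjusted p = 0.0778). Alas2, the erythroid enzyme of heme synthesis, did not follow, with 84.9, 20.4 and 17.2 FPKM and then 94.7 and 55.7 FPKM. Neutrophil granule genes summed to 2025, 127 and 53.8 FPKM and then to 29.6 and 96.7 FPKM, and none of 9 passed. Of 17 T and NK cell genes listed, 7 passed the filter on low values, which favours genes high in the juvenile group. Among all tested genes 9.93% fell. Of 7 T and NK cell genes 3 fell, the cytotoxic granule genes Gzma and Gzmb and the receptor subunit Cd3g, and none of the 7 passed with median ratios, without W6 or without W8. Car2 was likewise lost without W6, without W8 and with median ratios.

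Genes of fatty acid oxidation and targets of PPARA, the fatty acid sensor of fasting and suckling liver, were highest at W2. This held for 28 of 31 list members with all 5 values, against 24.8% of all tested genes. In the comparison of adult with juvenile weeks 6 of 32 fell and none rose, with a median of -0.86, and the count was 2 with median ratios, 1 with quantile normalization, 2 with the GC trend removed, 0 without W6, 0 without W8, 3 without W1, 3 without W2 and 15 without W3. Cyp4a14, a hydroxylase of fatty acids and a sensitive PPARA target (chromosome 4, 115486200 to 115496167), had 233, 671 and 141 FPKM at W1, W2 and W3 and 2.70 and 1.25 FPKM in adults (-6.61 ± 0.63, adjusted p = 0.00373). The similar Cyp4a10 had 72.5, 399 and 44.5 FPKM and then 8.04 and 0.992 FPKM (-4.70 ± 1.00, adjusted p = 0.0370). Both were highest at W2 and lowest at W8, with W6 between. The enzymes themselves changed by less. Acadl, a long-chain acyl-CoA dehydrogenase with a scaffold copy, had 208, 323 and 109 FPKM and then 46.2 and 46.2 FPKM (-2.05 ± 0.45, adjusted p = 0.0385). Acadm, the medium-chain enzyme, had 174, 255 and 130 FPKM and then 57.3 and 68.9 FPKM (-1.50 ± 0.34, adjusted p = 0.0404). Cd36, a fatty acid uptake receptor, fell from 10.6, 6.67 and 7.76 FPKM to 1.49 and 2.68 FPKM (-1.6 ± 0.29).

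Fgf21, a hormone of fasting and suckling, showed the W2 maximum without passing. It had 9.47, 42.5 and 2.62 FPKM and then 1.65 and 0.827 FPKM (-2.42 ± 0.93, adjusted p = 0.109). Its W3 value lay just above the adult values. Fabp1, the fatty acid binding protein and the most abundant member, was instead highest at W6. It had 5954, 7334 and 4638 FPKM and then 8915 and 4334 FPKM, with overlapping groups.

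The genes of fatty acid synthesis that rose were low at W1 and W2 and higher at W3. Of 23 tested genes 2 rose and none fell, with a median of 0.19, and with quantile normalization, with the GC trend removed, without W6, without W8 or without W2 none passed, while 6 rose and 4 fell without W3. Scd1, the stearoyl-CoA desaturase, had 2.40, 4.24 and 44.8 FPKM and then 545 and 329 FPKM (5.51 ± 1.04, adjusted p = 0.0306). Acacb, an acetyl-CoA carboxylase that restrains oxidation, had 0.514, 1.40 and 3.20 FPKM and then 18.5 and 6.87 FPKM (2.32 ± 0.53, adjusted p = 0.0407). The 2 members below did not pass and were likewise higher at W3 than at W1 and W2. Fasn, fatty acid synthase, had 7.09, 4.89 and 42.3 FPKM and then 62.9 and 26.6 FPKM (1.72 ± 0.85, adjusted p = 0.182). Thrsp, a lipogenic regulator, had 1.12, 0.625 and 45.4 FPKM and then 323 and 96.4 FPKM (5.03 ± 1.42, adjusted p = 0.0617).

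Cholesterol synthesis had its maximum at W3 and its minimum mostly at W2. Of 24 genes 22 were highest at W3, against 16.9% of all tested genes, and 18 were lowest at W2. None passed the comparison, by limma on FPKM or under the 3 other scalings, and without W3 8 rose. Fdps, farnesyl diphosphate synthase, had 78.0, 24.8 and 635 FPKM at W1, W2 and W3 and 244 and 357 FPKM at W6 and W8 (1.44 ± 1.20, adjusted p = 0.400). Idi1, an isomerase of the same pathway, had 22.3, 6.07 and 244 FPKM and then 22.9 and 79.9 FPKM (0.36 ± 1.38, adjusted p = 0.863). Hmgcs1, the entry enzyme, had 95.8, 50.9 and 468 FPKM and then 28.5 and 119 FPKM (-1.16 ± 0.98, adjusted p = 0.408). In each the W3 value exceeded both adult values. The juvenile values spanned the adult ones for Fdps and Idi1, while Hmgcs1 at W6 was below all juvenile values. Sqle, squalene epoxidase, had 20.5, 2.06 and 58.0 FPKM and then 18.3 and 48.7 FPKM.

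Amino acid catabolism followed the same calendar, with 22 of 34 genes highest at W3 and 20 lowest at W2. None of the 34 passed on FPKM, and 13 rose without W3. Gpt, alanine aminotransferase, had 12, 6.80 and 303 FPKM and then 226 and 98.5 FPKM, and Tdo2, which opens the tryptophan ring, had 34.4, 68.1 and 501 FPKM and then 308 and 354 FPKM. In the urea cycle 6 of 9 genes were highest at W3. Ass1, argininosuccinate synthase, had 817, 235 and 3991 FPKM and then 3485 and 1459 FPKM (1.30 ± 1.09, adjusted p = 0.406). The 1 call there was a fall, of the mitochondrial carrier Slc25a13, from 90.6, 80.0 and 64.1 FPKM to 37.6 and 33.0 FPKM (-1.11 ± 0.25, adjusted p = 0.0408), and it was lost without any 1 of W1, W2, W6 and W8. The iron hormone was also highest at W3: Hamp, hepcidin, had 26.8, 29.4 and 7781 FPKM and then 545 and 2432 FPKM, and Hamp2 had 4.76, 2.06 and 3775 FPKM and then 71.7 and 45.7 FPKM. Slc40a1, the iron exporter that hepcidin acts on, was level at 69.3, 70.9 and 60.9 FPKM and then fell to 15.1 and 11.1 FPKM (-2.28 ± 0.24, adjusted p = 0.00597).

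Acute phase genes were highest at W8. This held for 17 of 19 list members, against 6.17% of all tested genes. In the comparison 5 of 19 rose and none fell, with a median of 1.12, and the median absolute difference between W8 and W6 was 2.26 for this list against 0.30 for all tested genes. Saa2, a serum amyloid protein of inflammation (chromosome 7, 46751777 to 46754314), had 17.8, 14.2 and 172 FPKM at W1, W2 and W3, 1586 FPKM at W6 and 44203 FPKM at W8 (7.83 ± 1.55, adjusted p = 0.0333). Its near-identical neighbour Saa1 had 19.1, 17.6 and 518 FPKM and then 3494 and 33177 FPKM (7.54 ± 1.6, adjusted p = 0.0364). Together they took 0.0683% of the summed FPKM at W3, 0.524% at W6 and 7.38% at W8. Orm1, the acute phase protein orosomucoid, had 3.19, 4.70 and 164 FPKM and then 2497 and 6818 FPKM (8.03 ± 1.52, adjusted p = 0.0309). These 3 were above the juvenile range at W6 too, with W3 the highest juvenile library. Among all tested genes 6.94% had both adult values above that range.

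Lcn2 and Mt2 were above the juvenile range at W8 and not at W6. Lcn2, the iron-scavenging lipocalin, had 129, 23.3 and 30.8 FPKM, then 39.9 FPKM at W6 and 2375 FPKM at W8 (2.74 ± 1.61, adjusted p = 0.245). The metallothionein Mt2, which binds zinc, had 415, 675 and 737 FPKM, then 36.8 FPKM at W6 and 4785 FPKM at W8 (-0.48 ± 1.77, adjusted p = 0.857), so that W6 was the lowest and W8 the highest of the 5. Hp, haptoglobin, had 3543, 4179 and 4720 FPKM and then 7622 and 17950 FPKM (1.51 ± 0.42, adjusted p = 0.0607). Lrg1, a leucine-rich plasma glycoprotein, had 58.2, 188 and 263 FPKM and then 1590 and 2978 FPKM (3.92 ± 0.65, adjusted p = 0.0236). The contrast of this list rested on W8. Without W8 none of 19 rose, 1 fell and the median was -0.02, and without W6 none passed and the median was 2.48. The count was also 0 with quantile normalization, 2 with the GC trend removed, 1 without W1 and 1 without W2.

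**Figure D5:**
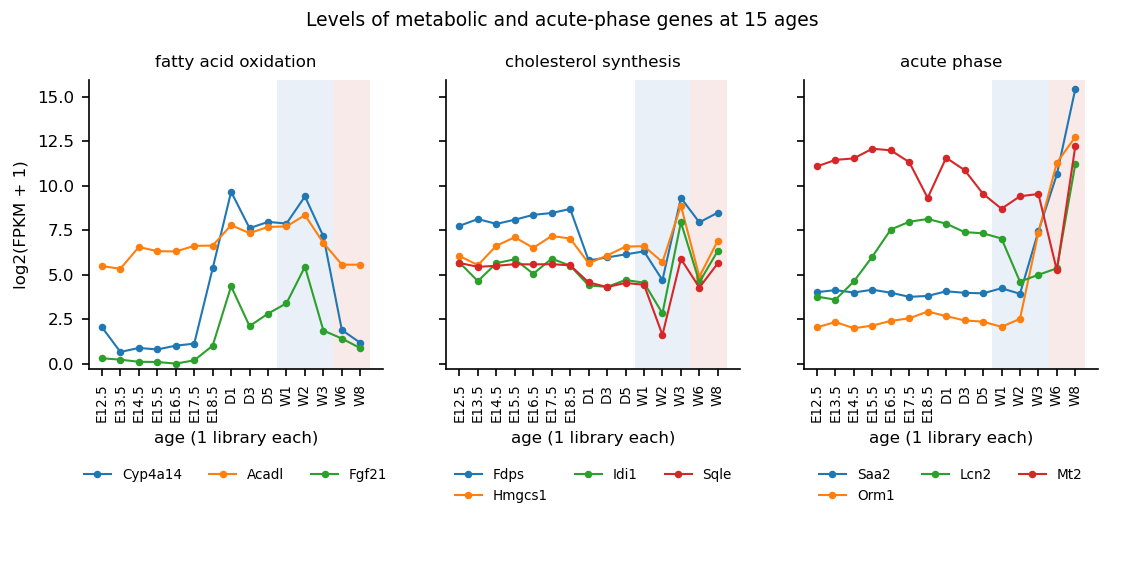
Levels of genes of fatty acid oxidation, cholesterol synthesis and the acute phase at 15 ages, 1 library each, as log2(FPKM + 1), with the juvenile weeks shaded blue and the adult weeks red. Cyp4a14 and Fgf21 are highest of the 5 weeks at W2, Fdps and Idi1 at W3, and Saa2, Lcn2 and Mt2 at W8.

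Of 21 complement genes 4 rose and none fell, with a median of 0.48, and the count was 2 with quantile normalization, 7 without W3, 2 without W2, 1 without W6 and 1 without W8. C9, the pore-forming unit of the membrane attack complex, had 10.3, 13 and 13.1 FPKM in juveniles and 270 and 411 FPKM in adults (4.68 ± 0.28, adjusted p = 3.58e-04). C8b and C8a, subunits of the same complex, rose from 48.4, 24.3 and 60.6 FPKM to 246 and 212 FPKM (2.43 ± 0.40) and from 69.0, 47.6 and 43.9 FPKM to 157 and 254 FPKM (1.91 ± 0.33). C3, the central and most abundant component, had 1620, 1058 and 1786 FPKM and then 1552 and 1859 FPKM (0.23 ± 0.33, adjusted p = 0.629).

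Of 35 tested plasma protein genes 1 rose and 2 fell, with a median of -0.15 that turned to 0.39 with median ratios. The adult values overlapped the juvenile range for 18 of the 35. Both lay above it for 10 and below it for 7, against 6.94% and 51.6% of all tested genes. Ahsg, the fetal glycoprotein fetuin-A, fell from 25674, 32174 and 17853 FPKM to 8469 and 5195 FPKM (-1.89 ± 0.39, adjusted p = 0.0359). Hpx, the heme carrier hemopexin, rose from 3116, 3212 and 4529 FPKM to 9451 and 12589 FPKM (1.61 ± 0.32, adjusted p = 0.0337). Neither passed without W6 or without W8. Serpina3k, a serine protease inhibitor, had 23.5, 10.5 and 1789 FPKM and then 9687 and 8278 FPKM (6.81 ± 1.97, adjusted p = 0.0644).

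Among cytochrome P450 genes outside the sex-biased lists 4 of 29 rose and 2 fell, with a median of 0.43, and among conjugating enzymes 6 of 38 rose and 3 fell, with a median of 0.31. Over all tested genes 1.74% rose and 9.93% fell, so the share of falls in both lists, 6.9% and 7.89%, was under that of all genes. Without W6 none of the P450 genes rose and 1 fell, and the same was true without W8, whereas 11 rose without W3. Cyp2e1, which oxidises ethanol and is the most abundant member, had 1073, 2419 and 2289 FPKM and then 2086 and 1381 FPKM (-0.09 ± 0.44, adjusted p = 0.887). Cyp2c67 rose from 12.2, 50.3 and 18.7 FPKM to 134 and 215 FPKM (2.85 ± 0.57, adjusted p = 0.0337). Cyp4v3, a fatty acid hydroxylase, rose from 21.5, 43.3 and 42.2 FPKM to 174 and 137 FPKM (2.14 ± 0.36). Por, the reductase that all microsomal P450 enzymes need, fell from 137, 233 and 210 FPKM to 70.4 and 63.4 FPKM (-1.48 ± 0.30, adjusted p = 0.0345). Cyp2f2, a periportal P450, had 28.2, 5.78 and 212 FPKM and then 1226 and 669 FPKM without passing (4.70 ± 1.28, adjusted p = 0.0575).

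Of the conjugating enzymes, the glucuronosyltransferases Ugt2b1 and Ugt1a9 rose from 29.6, 30.5 and 63.2 FPKM to 240 and 152 FPKM (2.28 ± 0.41) and from 4.08, 1.67 and 5.16 FPKM to 28.7 and 15.1 FPKM (2.32 ± 0.43). Sult5a1, a sulfotransferase, had the largest rise past the threshold, 2.90 ± 0.48. Sult1c2, another sulfotransferase, fell from 28.4, 20.4 and 6.19 FPKM to 1.13 and 0.343 FPKM (-3.29 ± 0.59, adjusted p = 0.0273). Mgst1, a microsomal glutathione transferase and the most abundant member of this list, which leaves out the sex-biased Gstp1, had 1149, 1370 and 1542 FPKM and then 2701 and 2723 FPKM (1.01 ± 0.28, adjusted p = 0.0575). Of 18 transporters 3 rose, led by Slc22a30 from 1.56, 1.86 and 6.70 FPKM to 53.2 and 53.3 FPKM (3.82 ± 0.48, adjusted p = 0.0107), with Slco2b1 and Slco2a1. The number of conjugating enzymes that passed was 0 without W6, 1 without W8, 5 without W1, 1 without W2 and 19 without W3, and no transporter passed without W6 or without W8.

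Bile acid genes had 3 falls among 23 (13%, against 9.93% of all tested genes), none of which stood without W6, without W8, with median ratios or with the GC trend removed. They were Cyp39a1, an oxysterol hydroxylase (56.7 FPKM at W3 and 3.20 and 3.24 FPKM in adults, -2.81 ± 0.62), Akr1d1, a steroid reductase (-1.86 ± 0.27), and Klb, a coreceptor of fibroblast growth factors (-1.38 ± 0.31). Cyp7a1, the rate-limiting enzyme of bile acid synthesis, had 29.3, 3.83 and 111 FPKM and then 5.54 and 4.43 FPKM (-2.09 ± 1.15, adjusted p = 0.221). Of 20 genes of gluconeogenesis and glycogen 2 fell, a share like that of all tested genes (9.93%), and the glucose carrier Slc2a2 went from 108, 126 and 88.6 FPKM to 36.2 and 13 FPKM (-2.24 ± 0.43, adjusted p = 0.0321). Neither it nor Pck2 passed with median ratios.

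Transcription factors of hepatocytes changed little. Of 24 tested 1 rose and 1 fell, with a median of -0.12 that was 0.32 with median ratios. Zbtb20, a repressor of Afp, rose from 2.56, 5.28 and 5.06 FPKM to 11.3 and 10.4 FPKM (1.21 ± 0.30, adjusted p = 0.0494). Nr1i3, the xenobiotic receptor CAR, fell from 58.4, 124 and 99.5 FPKM to 23.8 and 23.2 FPKM (-1.89 ± 0.35, adjusted p = 0.0293). Zhx2, another repressor of Afp, had 1.30, 2.56 and 1.77 FPKM and then 4.18 and 3.30 FPKM (0.74 ± 0.26, adjusted p = 0.0932). Hnf4a, the most widely acting of them, had 75.6, 89.6 and 149 FPKM and then 108 and 146 FPKM, with overlapping groups. Neither call stood without W6, without W8 or with quantile normalization.

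Of 18 clock genes 4 fell, the output regulators Dbp, Tef and Hlf and the clock gene Per3, with a median of -0.91. Dbp had 5.08, 20.6 and 2.95 FPKM and then 0.272 and 0.129 FPKM (-2.74 ± 0.66, adjusted p = 0.0461). The time of day of each library was not given here, so hour and age cannot be told apart for these genes. The core activator Arntl had 6.26, 5.41 and 8.26 FPKM and then 6.90 and 7.97 FPKM. None of the 18 fell past the threshold with quantile normalization, with the GC trend removed, without W6 or without W8, and 7 did without W3. In the list of immediate early and heat shock genes Hspb1, a small heat shock protein, rose from 1.69, 2.18 and 2.93 FPKM to 42.3 and 50.4 FPKM (3.87 ± 0.25, adjusted p = 5.60e-04), and it was called without W6 and without W8 as well as with each scaling. None of the other 17 rose. Pigr, which carries antibodies into bile, rose from 1.55, 3.64 and 13 FPKM to 108 and 111 FPKM (4.33 ± 0.65, adjusted p = 0.0183). Its call was lost without W6 and without W8.

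The timing of the changes was described with the juvenile weeks and with the ages outside the contrast. Of the 214 genes called higher, 141 (65.9%) made at least 75% of their change from W1 between W3 and the adult mean, as did 559 of the 1220 called lower (45.8%) and 36.5% of all tested genes. These are the libraries of the contrast, and a gene whose W3 value is near the adult mean has a wide juvenile spread and is seldom called, so the shares among called genes are set in part by the call. Leaving out W3 or an adult library changes which genes are called, and over both directions the share of 48.8% was then 27.2% without W3 and 100% without W6 or without W8. At D5, which the contrast did not use, 212 of the 214 and 1203 of the 1220 lay on the juvenile side of the midpoint, against 84.5% of all tested genes. The adult mean was above all 13 earlier libraries for 207 of the 214 (6.55% of all tested genes). It was below all 13 for 1016 of the 1220 (46.5% of all). The 13 include W1, W2 and W3, and every called gene had both adult values outside the range of these. Only 6.94% of all tested genes had both above that range and 51.6% both below it. These shares among called genes are thus also set in part by the call. Among the genes called lower, 193 (15.8%, against 2.97% of all) had a juvenile mean at least 1 above both the embryonic and the adult mean, such as Cyp2b9 and Cyp4a14, and 321 (26.3%, against 20.1%) had been at least 1 higher still in the embryo. A fall of at least 1 to the adult is favoured by the call itself, so the share of 15.8% is set in part by it. The median absolute change was 1.36 in genes called lower and 0.52 in all tested genes.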

How the data were processed

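RNA of whole mouse liver was sequenced in 1 library per age, and 5 of 15 libraries entered the contrast: W1, W2 and W3 (juvenile) and W6 and W8 (adult). Per the file headers, each table the authors deposited holds the FPKM of every gene in 1 library with its bounds and a status. Bowtie 0.12.2, FastQC and the mouse build GRCm38.p2 are named per the submitters' processing notes, while the tool behind the FPKM values is not given in the sources used here. Rows whose status was not OK were left out. Of 46966 genes, 44482 lie on chromosomes, and the 2484 entries on scaffolds were not tested.

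From FPKM, log2(FPKM + 1) was computed, which understates changes of low genes. Genes over 1 FPKM in at least 2 of the 5 libraries (12290) were fitted with limma-trend (limma 3.58.1, R 4.3.3), with 3 residual degrees of freedom, and p-values were adjusted over all of them by Benjamini-Hochberg with a threshold of 0.05. An exact permutation of 3 against 2 libraries cannot go below 0.2 two-sided, so no single value was tested that way. The fit was tested on simulated data with known changes. Depth was estimated from the authors' bounds.

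The members and the 46 gene lists (923 symbols, 922 matched, 8 by an older symbol) were chosen with earlier results of these data known. Named genes are list members and the 15 largest rises and 15 largest falls past the threshold with at least 10 FPKM in the higher group, leaving out predicted genes and repeated symbols. The 15 largest rises outside the Mup family were added after values were seen. Promoters (250 bases before the start) came from RefSeq on GRCm38.p6 for 27018 genes and were searched on both strands. Motifs for STAT, sterol, D-box and E-box factors were searched too. The STAT motif occurred in 1 of 18 male-biased and 2 of 19 female-biased promoters, against 7.18% of all promoters. The D-box occurred in 4 of 18 and 2 of 19, against 3.23%. Similar genes were counted separately, and these shares were not tested. GC content came from GENCODE transcripts for 96.4% of tested genes. Alternatives were another pseudocount, other filters, 4 other scalings, a fit of all 15 libraries and leaving out each library. Tables were made with Python 3.11.15, numpy 2.4.6, pandas 2.3.3 and matplotlib 3.10.9.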

Additional observations from a re-analysis of the deposited data

How the results depend on the processing

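No paired analysis was possible because the labels give 1 library per age and no replicate numbers. The 214 genes higher in adult weeks became 62 with no filter on low values and 336 with all 15 libraries in 1 fit, and 48 to 446 when 1 library was left out, lowest without W8 and highest without W3. The 1220 lower genes became 29 with no filter, 590 with a filter of over 5 FPKM, 120 with quantile normalization, 269 with median ratios, 2578 with the mitochondrial genome left out of the totals, 164 with the GC trend removed, 2530 with all 15 libraries and 10 to 2672 when 1 library was left out, lowest without W6 and highest without W3. No call of the main contrast changed its sign under any of these 13 alternatives, but most of them could not have changed it. Every called gene had both adult values on the same side of all juvenile values. Leaving out a library or changing the pseudocount therefore could not reverse a call. The filters and the fit of all 15 libraries left the group difference as it was. Only the changes of scaling, including the GC trend and the mitochondrial genome, could have reversed a sign, and none did. A pseudocount of 0.1 gave 223 higher and 1732 lower genes. The 629 genes with W6 and W8 over 1 apart became 409 with the GC trend removed and 1474 with a pseudocount of 0.1. The share of called genes with at least 75% of their change after W3, 48.8%, became 44.6% with a pseudocount of 0.1, 98.8% with no filter, 54.0% over 5 FPKM, 75.8% with quantile normalization, 59.3% with median ratios, 43.7% without the mitochondrial genome, 67.0% with the GC trend removed, 42.1% with all 15 libraries and 27.2% to 100% when 1 library was left out. The cause was not tested. Of 222 named genes past the threshold, 129 passed in the same direction with median ratios, 101 with the GC trend removed, 86 with quantile normalization, 33 without W6 and 34 without W8. With 3 fragments on 1000 bases at 0.147 to 0.184 FPKM, differences between values below that level were not detectable.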

Other observations

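The zones of the liver lobule moved gene by gene. Of 17 genes of the pericentral zone, around the central vein, 4 fell and none rose on FPKM, with a median of -0.57, and none passed with median ratios, without W6 or without W8. Slc13a3, a carrier of dicarboxylates, had 85.7, 135 and 20.2 FPKM at W1, W2 and W3 and 5.90 and 6.92 FPKM at W6 and W8 (limma, -3.09 ± 0.73, adjusted p = 0.0442). Lect2, a secreted protein of pericentral hepatocytes, had 417, 295 and 314 FPKM and then 106 and 83.2 FPKM (limma, -1.84 ± 0.28, adjusted p = 0.0184). Glul, glutamine synthetase, the defining gene of the zone, had 229, 266 and 366 FPKM and then 271 and 227 FPKM, with overlapping groups. Of 16 genes of the periportal zone 1 rose, Pigr, and 1 fell, the lipid droplet enzyme Hsd17b13, from 300, 420 and 255 FPKM to 120 and 153 FPKM (limma, -1.22 ± 0.31, adjusted p = 0.0494). Without W6 or without W8 none of the 16 passed.

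Of 14 bile duct cell markers 9 passed the filter on low values, which favours genes high in the juvenile group. Of these 9, 2 fell, both from low levels, against 9.93% of all tested genes. Bicc1, an RNA-binding protein, had 3.00, 4.35 and 2.36 FPKM and then 0.325 and 0.411 FPKM, and Krt19, a keratin of bile ducts, had 2.68, 3.94 and 2.94 FPKM and then 1.22 and 0.557 FPKM. Of 29 genes of antigen presentation and the interferon response 2 rose: Irf7, an interferon regulator, from 15.9, 20.03 and 18.7 FPKM to 45.7 and 32.4 FPKM, and H2-K1, a class I histocompatibility gene with a scaffold copy, from 149, 258 and 305 FPKM to 740 and 546 FPKM. None of the 4 passed without W6 or without W8. Genes of the respiratory chain and of the ribosome were mostly highest at W3 among the 5 libraries, 25 of 32 in each list, against 16.9% of all tested genes. Their medians between adult and juvenile weeks were -0.19 and -0.46 on FPKM and 0.35 and 0.08 with median ratios, so their direction turned with the scaling.

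Cela1, an elastase of the pancreas that is also known from other tissues, rose from 6.93, 3.96 and 10.1 FPKM to 42.4 and 24.4 FPKM (limma, 2.13 ± 0.40, adjusted p = 0.0311), while 9 to 11 of 13 pancreas markers were listed at 0 in each of the 5 libraries. Its call was lost without W6 and without W8.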
